A study of Hansenula anomala with 15 samples.

Results

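The genes described here are the ribosome biogenesis and nucleolar genes of Wickerhamomyces anomalus, a fermenting yeast whose organism label is Hansenula anomala. They were taken as all genes of the deposited count table whose KOG description (a class of orthologous proteins) contains the word nucleolar, rRNA, snoRN or ribosome biogenesis and not ribosomal protein. The rule found 44 of 6571 genes and used no measured value. All 44 members were among the 6327 genes that passed the filter on low counts, and 39 carried a gene symbol in RefSeq. The rule reads only the KOG text, which 4017 genes of the table had, so a factor described under another heading is not a member. One member, WICANDRAFT_70831, has the RefSeq symbol LYS12, the name of a lysine synthesis enzyme, beside a KOG description of the nucleolar protein NOL1. The sources conflict, and it is called LYS12 below by its symbol only.

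Eukaryotic ribosomes are assembled in the nucleolus, where RNA polymerase I makes a long precursor rRNA. Small nucleolar RNPs guide its methylation (box C/D) and pseudouridylation (H/ACA), a large complex called the small-subunit processome folds and cleaves the 18S part, and further factors mature the large subunit. In Saccharomyces cerevisiae the genes of these factors form a co-regulated regulon whose transcript levels follow growth rate. Roles named below are those known in Saccharomyces cerevisiae for the gene of the same symbol.

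Polyadenylated RNA from whole fermentation broth was sequenced at 0, 16, 32, 48 and 64 h, with 3 libraries labelled as biological replicates at each time point (15 in all). The series concerns volatile compounds in apricot fermentation, and the labels name no strain, treatment, batch or uninoculated control. The labels do not say whether the replicates were separate cultures, so p-values measure the spread between these libraries. The values are mRNA levels of the assembly factors, and neither rRNA nor snoRNA was measured. All levels are relative to the other counts of a library, so changes in cell number or in total RNA per cell cannot be seen.

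Library totals were 17.6 to 40.1 M counts. A detection floor of 3 counts was worth 0.0748 to 0.171 CPM, where CPM is counts per 1 M of a library. Floors cover counting error only, and the lowest count of any member in any library was 8. The top 10 genes held between 20.7% and 52.5% of the counts, and the scaling of libraries matters for what follows. Levels below are CPM scaled by TMM, a method that assumes most genes do not change between libraries. Against scaling by library size alone, TMM moved the median log2 fold change of all genes: library size gave a median that differed by -0.69 for 16 h over 0 h, 1.16 for 32 h over 16 h, 0.45 for 48 h over 32 h, -0.67 for 64 h over 48 h, 0.93 for 64 h over 16 h and 0.26 for 64 h over 0 h. Members are therefore also given relative to the median of all genes, a difference that had the same sign under both scalings. A scaling moves all genes of a comparison by nearly the same amount, so this agreement was nearly fixed in advance. It cannot show which scaling is right. The members' replicates were not equally alike, as 2 libraries departed from their groups: 16 h replicate 2 had a Spearman's rho across genes of 0.742 at most with its group, whose other libraries reached 0.962 with each other, and 64 h replicate 3 had 0.837 at most with its group but 0.951 with 32 h replicate 2. The 32 h and 48 h libraries also resembled each other across groups. Results that rest on these libraries are given with and without them.

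Most ribosome biogenesis genes had their lowest mean level at 64 h, and with TMM scaling their highest at 0 h. The TMM-scaled mean was highest at 0 h for 27 of 44 members (61.4%, against 30.5% of all genes tested). At 16 h it was highest for 12 (27.3%, near the 24.4% of all genes). It was highest at 32 h for 2, at 48 h for 3 and at 64 h for 0, against 12.6%, 13.7% and 18.9% of all genes. It was lowest at 64 h for 31 members (70.5%, against 21.5% of all genes). With library size scaling 21 members were highest at 0 h and 19 at 48 h, 26 were lowest at 64 h, and 0 were highest at 64 h. In TMM-scaled levels the median member stood at 0.60, 0.46, -0.30, -0.17 and -0.67 log2 units around its own mean from 0 h to 64 h, so that the step between 16 h and 32 h was the largest between neighbouring times. In the edgeR quasi-likelihood F test over all time points, with Benjamini-Hochberg adjustment over all genes, 29 of 44 members changed (65.9%). Among all genes 68.5% were called, so change in itself did not set the members apart. Their direction is described below.

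**Figure D1:**
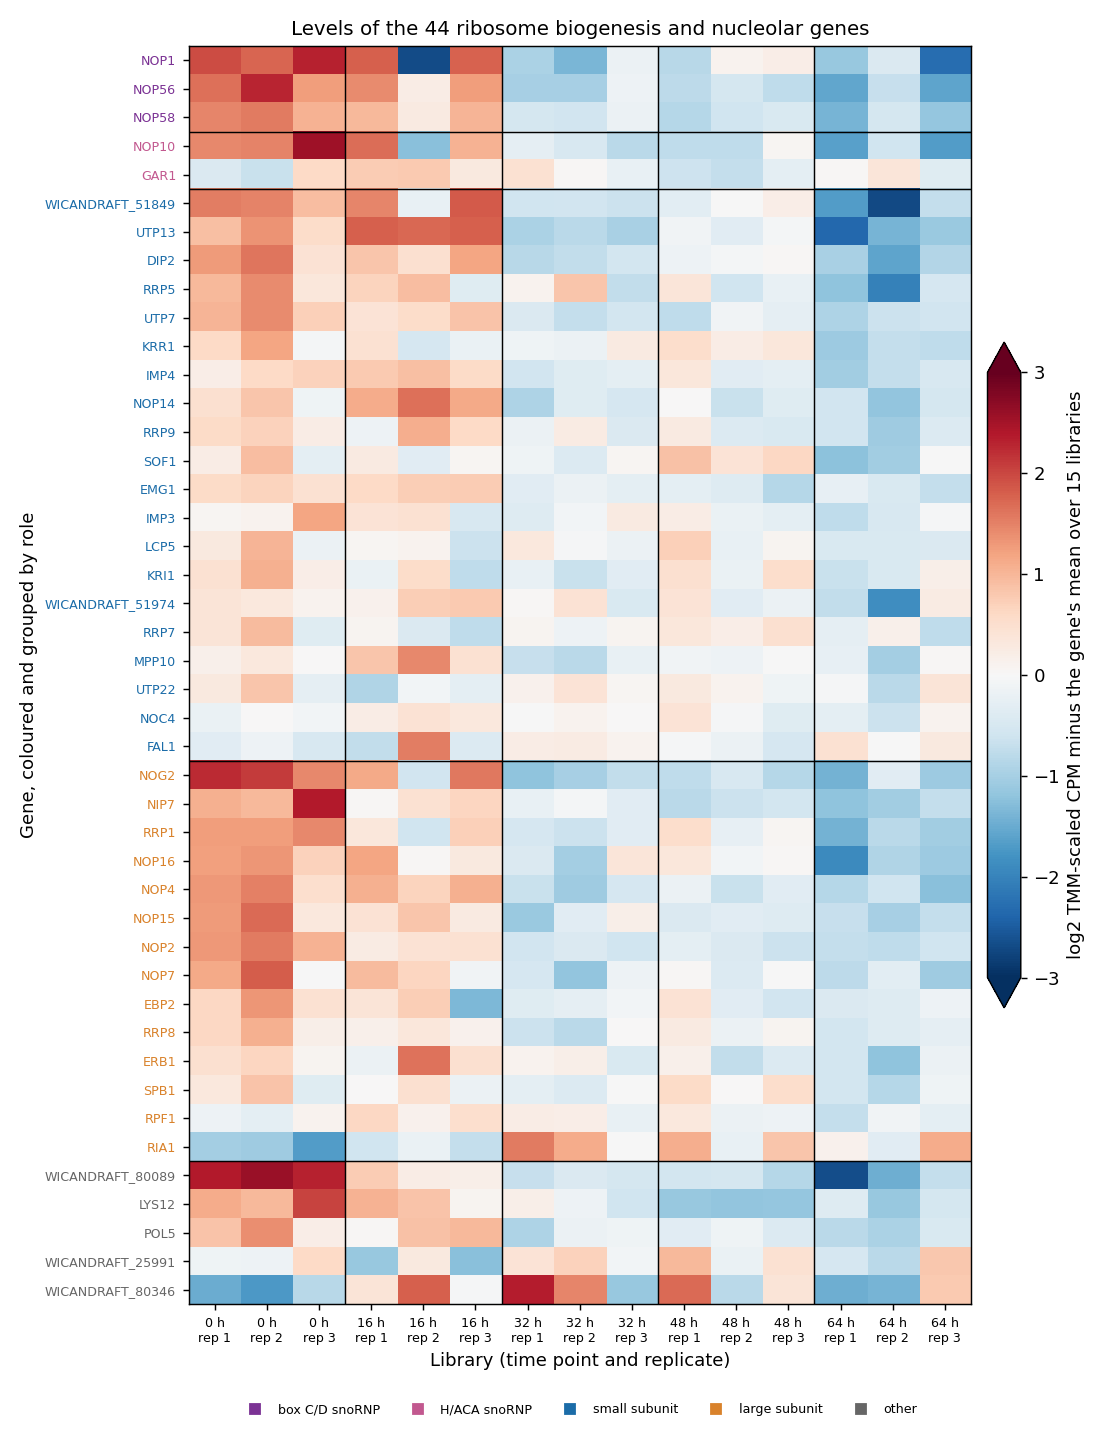
Heat map of the 44 members (down, grouped by role) in the 15 libraries (across, 3 per time point), coloured by log2 TMM-scaled CPM minus the gene's own mean over the 15 libraries. The 0 h and 16 h columns are mostly red and the 64 h columns mostly blue. RIA1 runs the other way in most of these columns, and WICANDRAFT_80346 does so at 0 h. In several genes 16 h replicate 2 and 64 h replicate 3 depart from their neighbours.

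The 3 members among the core proteins of box C/D snoRNPs, which carry out 2'-O-methylation of rRNA, were all lower at 64 h than at 0 h. NOP1, the methyltransferase fibrillarin, had 300, 256 and 383 CPM at 0 h, 265, 11.9 and 263 at 16 h, 39.7, 29.9 and 68.0 at 32 h, 43.0, 82.7 and 87.9 at 48 h and 35.2, 57.0 and 15.7 at 64 h. All 0 h libraries lay above all libraries from 32 h on, while 16 h replicate 2 lay below every other library. At 64 h NOP1 was 36.0 ± 20.6 CPM, against 313 ± 64.4 CPM at 0 h (SD, n = 3 each), a log2 fold change of -3.12 ± 0.81 (SE; edgeR adjusted p = 0.00494). NOP56, a scaffold protein of the same particle, had 6.13, 11.3 and 6.01 CPM at 64 h, against 56.8, 88.2 and 43.2 CPM at 0 h, with no overlap (log2 fold change -3.0 ± 0.41, edgeR adjusted p = 4.42e-05). NOP58, its partner scaffold, had 13.2, 24.2 and 15.5 CPM at 64 h, against 95.8, 102 and 72.1 CPM at 0 h, and again the groups did not overlap (log2 fold change -2.35 ± 0.32, edgeR adjusted p = 3.76e-05). These 3 falls were also called with library size scaling. Most of the fall lay between 16 h and 32 h: NOP56 had 9.04, 9.13 and 16.2 CPM at 32 h, against 48.1, 21.2 and 43.1 CPM at 16 h (log2 fold change -1.71 ± 0.39, edgeR adjusted p = 0.00498). With library size scaling that difference was -0.44 and not called, and that of NOP58 was 0.00 in place of -1.21. For NOP1 the same step did not pass the test (log2 fold change -1.97 ± 0.77, edgeR adjusted p = 0.0634), and at 16 h its replicates spanned 11.9 to 265 CPM.

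The members of the H/ACA snoRNP, the particle of rRNA pseudouridylation, were NOP10 and GAR1, of which NOP10 fell. The difference between them was not tested. NOP10, its smallest core protein, had 3.64, 7.38 and 3.51 CPM at 64 h, against 30.3, 31.2 and 65.6 CPM at 0 h, with no overlap (log2 fold change -3.13 ± 0.60, edgeR adjusted p = 0.000618). GAR1, another core protein, had 157, 196 and 119 CPM at 64 h, against 114, 97.1 and 230 CPM at 0 h, and these groups overlapped (log2 fold change 0.09 ± 0.36, edgeR adjusted p = 0.843). GAR1 passed the test in 0 of the 6 comparisons, and its time means ran from 106 to 236 CPM. Per kb of gene length it had the highest mean level of all members over the 15 libraries, 259 CPM per kb, followed by NOP1 with 135, WICANDRAFT_80346 with 102, NOP10 with 90.8 and LYS12 with 53.0 CPM per kb. In both genes of this particle 0 h replicate 3 was at least 2-fold above its mates, which is taken up with gene length below.

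**Figure D2:**
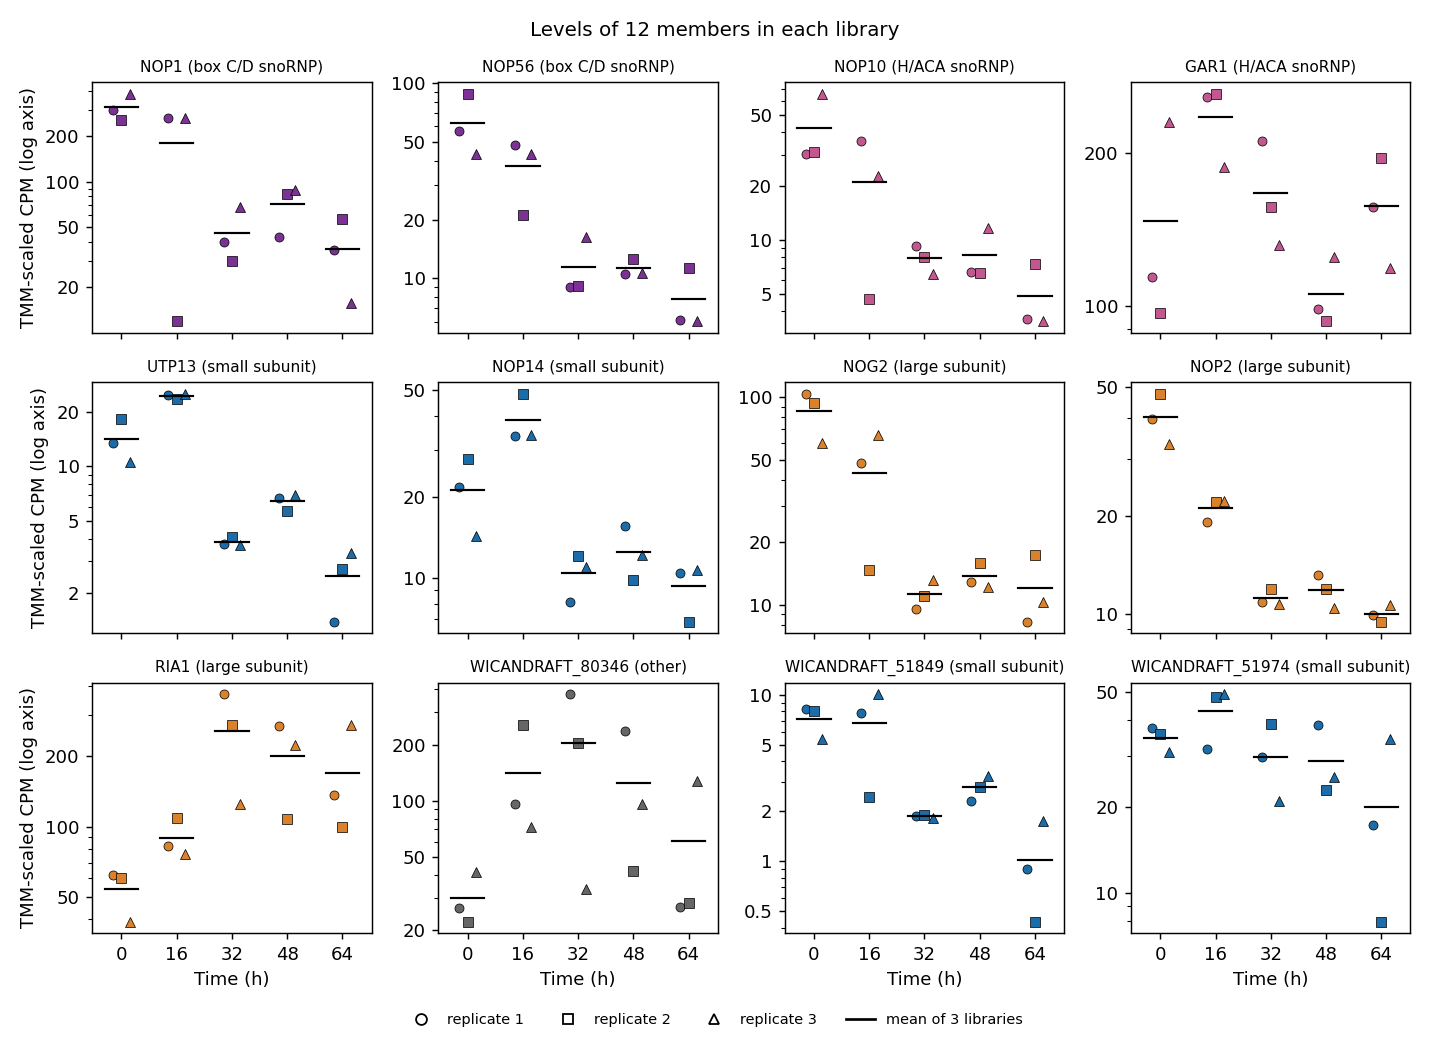
Levels of 12 members in each library, in TMM-scaled CPM on log axes with a scale of their own, by time in hours; symbols are the 3 replicates and lines their means. NOP56, NOG2 and NOP2 step down between 16 h and 32 h. The means of NOP1 and NOP10 are also lower at 32 h, but their 16 h replicate 2 lies below all 32 h libraries. UTP13 and NOP14 have their highest levels at 16 h, RIA1 is lowest at 0 h, and GAR1 shows no trend.

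The 20 members of the small-subunit processome and related 18S factors were lower in part: 12 fell at 64 h against 0 h, 0 rose and 8 did not pass the test. Of all genes 25.8% fell and 26.6% rose. With library size scaling the falls of NOP14, EMG1, IMP4, RRP9, SOF1 and LCP5 were not called. UTP13, a WD40 subunit of the UtpB complex, had 24.8, 23.6 and 25.1 CPM at 16 h, against 13.5, 18.2 and 10.6 CPM at 0 h, with no overlap (log2 fold change 0.80 ± 0.31, edgeR adjusted p = 0.0497). Its level was then 3.74, 4.09 and 3.68 CPM at 32 h, 6.67, 5.71 and 6.94 CPM at 48 h and 1.40, 2.74 and 3.34 CPM at 64 h. The 16 h libraries were the highest of all 15 and those of 64 h the lowest, and UTP13 was the only member called in every one of the comparisons 32 h over 16 h, 64 h over 16 h and 64 h over 0 h under both scalings. At 64 h it was 9.78-fold lower than at 16 h (log2 fold change -3.29 ± 0.34, edgeR adjusted p = 1.52e-05). NOP14, which joins the same precursor particle, had 33.8, 48.5 and 34.0 CPM at 16 h, against 21.7, 27.6 and 14.3 CPM at 0 h (log2 fold change 0.87 ± 0.31, edgeR adjusted p = 0.0374), and the groups did not overlap. It then fell to 8.11, 12 and 11 CPM at 32 h (log2 fold change against 16 h -1.90 ± 0.32, edgeR adjusted p = 0.000657). With library size scaling that fold change was -0.73 and not called. The rises of UTP13 and NOP14 at 16 h were near the threshold: with library size scaling the log2 fold changes were 0.05 and 0.14, not called, and UTP13 lost the call in 12 of 15 fits that left out 1 library. NOP14 lost it without 0 h replicate 1, 0 h replicate 3, 16 h replicate 2 or 48 h replicate 3.

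Further processome members fell by 64 h. DIP2, like UTP13 a UtpB subunit, was at 5.26 ± 1.30 CPM at 64 h, against 25.8 ± 9.67 CPM at 0 h (log2 fold change -2.29, edgeR adjusted p = 6.54e-05). UTP7 fell to 3.38 ± 0.43 CPM at 64 h, against 11.6 ± 2.88 CPM at 0 h. RRP5, a large RNA-binding protein needed for both subunits, had 8.68, 4.91 and 14.1 CPM at 64 h, against 39.2, 53.5 and 25.3 CPM at 0 h, without overlap. MPP10, IMP3 and IMP4 form one complex on the U3 snoRNA, and differences between them were not tested. MPP10 had 25.1, 38.3 and 19.2 CPM at 16 h, above the 15.5, 17.5 and 14.2 CPM of 0 h (edgeR adjusted p = 0.054, not called), and fell to 9.55 ± 2.13 CPM at 32 h (log2 fold change -1.53, edgeR adjusted p = 0.00281). With library size scaling the latter fold change was -0.36 and not called. IMP4 fell to 3.59 ± 0.37 CPM at 32 h, against 8.08 ± 0.901 CPM at 16 h (log2 fold change -1.17, lost without 32 h replicate 1, and 0.02 with library size scaling). IMP3 passed the test in 0 of the 6 comparisons, with 3.77 ± 0.948 CPM at 64 h and 7.26 ± 3.48 CPM at 0 h. EMG1, the pseudouridine methyltransferase of 18S rRNA, varied little between replicates, with 11.5, 12.9 and 11.9 CPM at 32 h, against 22.1, 24.3 and 24.6 CPM at 16 h, without overlap. Its log2 fold change there was -0.97 ± 0.24 (edgeR adjusted p = 0.00755), but 0.19 with library size scaling. Of the further members, RRP9, KRR1, SOF1 and LCP5 fell at 64 h against 0 h, where SOF1 and LCP5 each lost the call in 8 of the 15 fits that left out 1 library. LCP5 also lost it with both 16 h replicate 2 and 64 h replicate 3 left out, and with library size scaling only KRR1 of these genes kept it. NOC4, RRP7, UTP22, KRI1 and FAL1 were called in 0 of the 6 comparisons.

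A pair of members carry the same KOG description, that of the processome subunit PWP2, and nearly the same length (2784 bp for WICANDRAFT_51974 and 2783 bp for WICANDRAFT_51849). WICANDRAFT_51849 had 0.898, 0.434 and 1.75 CPM at 64 h, against 8.25, 8.04 and 5.44 CPM at 0 h, with no overlap (log2 fold change -2.81 ± 0.54, edgeR adjusted p = 0.000618). WICANDRAFT_51974 had 17.2, 7.95 and 34.5 CPM at 64 h, against 37.6, 35.7 and 31.1 CPM at 0 h (log2 fold change -0.81 ± 0.43, edgeR adjusted p = 0.123), and its groups overlapped. Both values are uncertain, because reads common to the pair cannot be traced without the genome sequence.

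Of the 14 members of large-subunit assembly, 11 fell at 64 h against 0 h, 1 rose and 2 did not pass. Of all genes 25.8% fell and 26.6% rose. With library size scaling the falls of RRP8, EBP2 and SPB1 were not called. NOG2, a GTPase of late nuclear pre-60S particles, had 8.28, 17.3 and 10.3 CPM at 64 h, against 104, 93.7 and 60.3 CPM at 0 h, with no overlap (log2 fold change -2.85 ± 0.47, edgeR adjusted p = 0.000189). At 16 h it had 48.3, 14.7 and 65.9 CPM, where replicate 2 was the low one as for NOP1 and NOP10. NOP2, a cytosine methyltransferase of 25S rRNA, stepped down at both early intervals. It had 19.2, 22.0 and 22.3 CPM at 16 h, against 39.8, 47.5 and 33.4 CPM at 0 h (log2 fold change -0.93 ± 0.23, edgeR adjusted p = 0.00484), and the groups did not overlap. At 32 h it had 10.9, 11.9 and 10.7 CPM (log2 fold change against 16 h -0.92 ± 0.23, edgeR adjusted p = 0.00777, but 0.23 with library size scaling). The fall at 16 h was called under both scalings and in all 15 fits that left out 1 library.

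RRP1, a protein of early pre-60S particles, had 6.89, 3.61 and 8.95 CPM at 16 h, against 13, 13 and 14.8 CPM at 0 h, without overlap (log2 fold change -1.06 ± 0.34, edgeR adjusted p = 0.0219). That call was lost without 16 h replicate 2 and without 0 h replicate 3. NIP7, needed for 27S rRNA processing, had 22.6, 30.0 and 34.5 CPM at 16 h, against 45.8, 43.2 and 115 CPM at 0 h (log2 fold change -1.23 ± 0.35, edgeR adjusted p = 0.0113). The 115 CPM of 0 h replicate 3 stood alone, and without that library the log2 fold change was -0.62 and not called. At 64 h against 0 h NIP7 fell with a log2 fold change of -2.60 ± 0.36 (edgeR adjusted p = 5.26e-05). NOP4, NOP15, NOP16 and NOP7 fell with log2 fold changes of -2.04, -2.01, -2.34 and -1.84. EBP2 and the 25S methyltransferase RRP8 fell with -1.16 and -1.07, where EBP2 lost the call in 6 of the 15 fits that left out 1 library and RRP8 without 0 h replicate 2. NOP7 and ERB1 act in one complex. ERB1 had 122 CPM in 16 h replicate 2 and 34.9 and 54.7 CPM in the others, and its fall at 64 h against 16 h (log2 fold change -1.43, edgeR adjusted p = 0.0168) was lost without 16 h replicate 2 (-0.78), without 64 h replicate 1 or 2, and with library size scaling (-0.53). SPB1, a methyltransferase of 25S rRNA, was 10.7 ± 2.83 CPM at 64 h and 19.3 ± 7.78 CPM at 0 h (log2 fold change -0.84, edgeR adjusted p = 0.0448, lost in 10 of the 15 fits that left out 1 library). RPF1, which binds 27S rRNA precursors, was 24.3 ± 5.03 CPM at 64 h and 41.5 ± 7.0 CPM at 16 h. Its log2 fold change of -0.77 (edgeR adjusted p = 0.0338) was 0.17 with library size scaling, and the call was lost in 7 of the 15 fits that left out 1 library.

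RIA1 was the 1 member that rose at 32 h against 16 h and at 64 h against 0 h. Its product is the cytoplasmic GTPase that, with Sdo1, releases Tif6 from the large subunit, so it acts outside the nucleolus. RIA1 had 62.0, 60.2 and 39.1 CPM at 0 h, 82.4, 109 and 76.2 at 16 h, 370, 273 and 125 at 32 h, 269, 108 and 224 at 48 h and 137, 99.8 and 273 at 64 h. The 0 h libraries lay below all others, and the late groups spread widely. The log2 fold change was 1.52 ± 0.48 for 32 h over 16 h (edgeR adjusted p = 0.0255) and 1.66 ± 0.48 for 64 h over 0 h (edgeR adjusted p = 0.0096), and with library size scaling both were called at 2.60 and 1.98. The first call was lost without 16 h replicate 1, 16 h replicate 3, 32 h replicate 1 or 32 h replicate 2, and the second without 64 h replicate 3. Over the 5 time means its Pearson r with the median member pattern was -0.85, the lowest of the 44, followed by WICANDRAFT_25991 (-0.41), WICANDRAFT_80346 (-0.30) and FAL1 (-0.20). These r describe 5 points each.

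WICANDRAFT_80346, described as an rRNA adenine methyltransferase, varied widely between replicates. It had 26.3, 22.3 and 41.5 CPM at 0 h, 96.1, 256 and 71.9 at 16 h, 376, 204 and 33.4 at 32 h, 238, 41.7 and 96.1 at 48 h and 26.6, 28 and 127 at 64 h. It passed the test in 0 of the 6 comparisons, with an adjusted p that rounds to 0.05 and is not under the threshold at 16 h against 0 h (edgeR log2 fold change 2.23 ± 0.86). At 32 h its replicates stood in the same order as those of RIA1, and in both genes 32 h replicate 1, 48 h replicate 1 and 64 h replicate 3 were the highest libraries of their groups. These 3 libraries also resembled each other across all genes (Spearman's rho 0.926 to 0.939). FAL1, an RNA helicase of the processome, had 55.3 CPM in 16 h replicate 2 and 11.4 and 14.5 CPM in the other 16 h libraries, and was called in 0 comparisons. Without both divergent libraries, FAL1 rose at 32 h against 16 h (log2 fold change 0.75, edgeR adjusted p = 0.0274). WICANDRAFT_25991, described as the nucleolar protein p130, did so too at 1.57 (edgeR adjusted p = 0.00802), from levels of 2.03 to 9.41 CPM over the 15 libraries.

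Among the remaining members, WICANDRAFT_80089, described as a cell growth-regulating nucleolar protein, had the largest fall of all 44. It had 0.399, 0.912 and 1.55 CPM at 64 h, against 13.2, 15.1 and 12.6 CPM at 0 h, and the groups lay far apart (log2 fold change -3.82 ± 0.43, edgeR adjusted p = 8.75e-06). It already fell to 4.32, 2.97 and 2.85 CPM at 16 h (log2 fold change against 0 h -2.01 ± 0.39, edgeR adjusted p = 0.00103), under both scalings and in all 15 fits that left out 1 library. POL5, needed for rRNA synthesis, fell to 4.17 ± 0.753 CPM at 64 h, against 12.8 ± 5.02 CPM at 0 h (log2 fold change -1.62, not called with library size scaling at -1.43). Its fall at 32 h against 16 h (-1.06, edgeR adjusted p = 0.0368) was 0.08 with library size scaling and was lost in 8 of the 15 fits that left out 1 library. LYS12 fell to 61.1 ± 15.6 CPM at 64 h, against 262 ± 113 CPM at 0 h (log2 fold change -2.10, edgeR adjusted p = 0.000413).

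**Figure D3:**
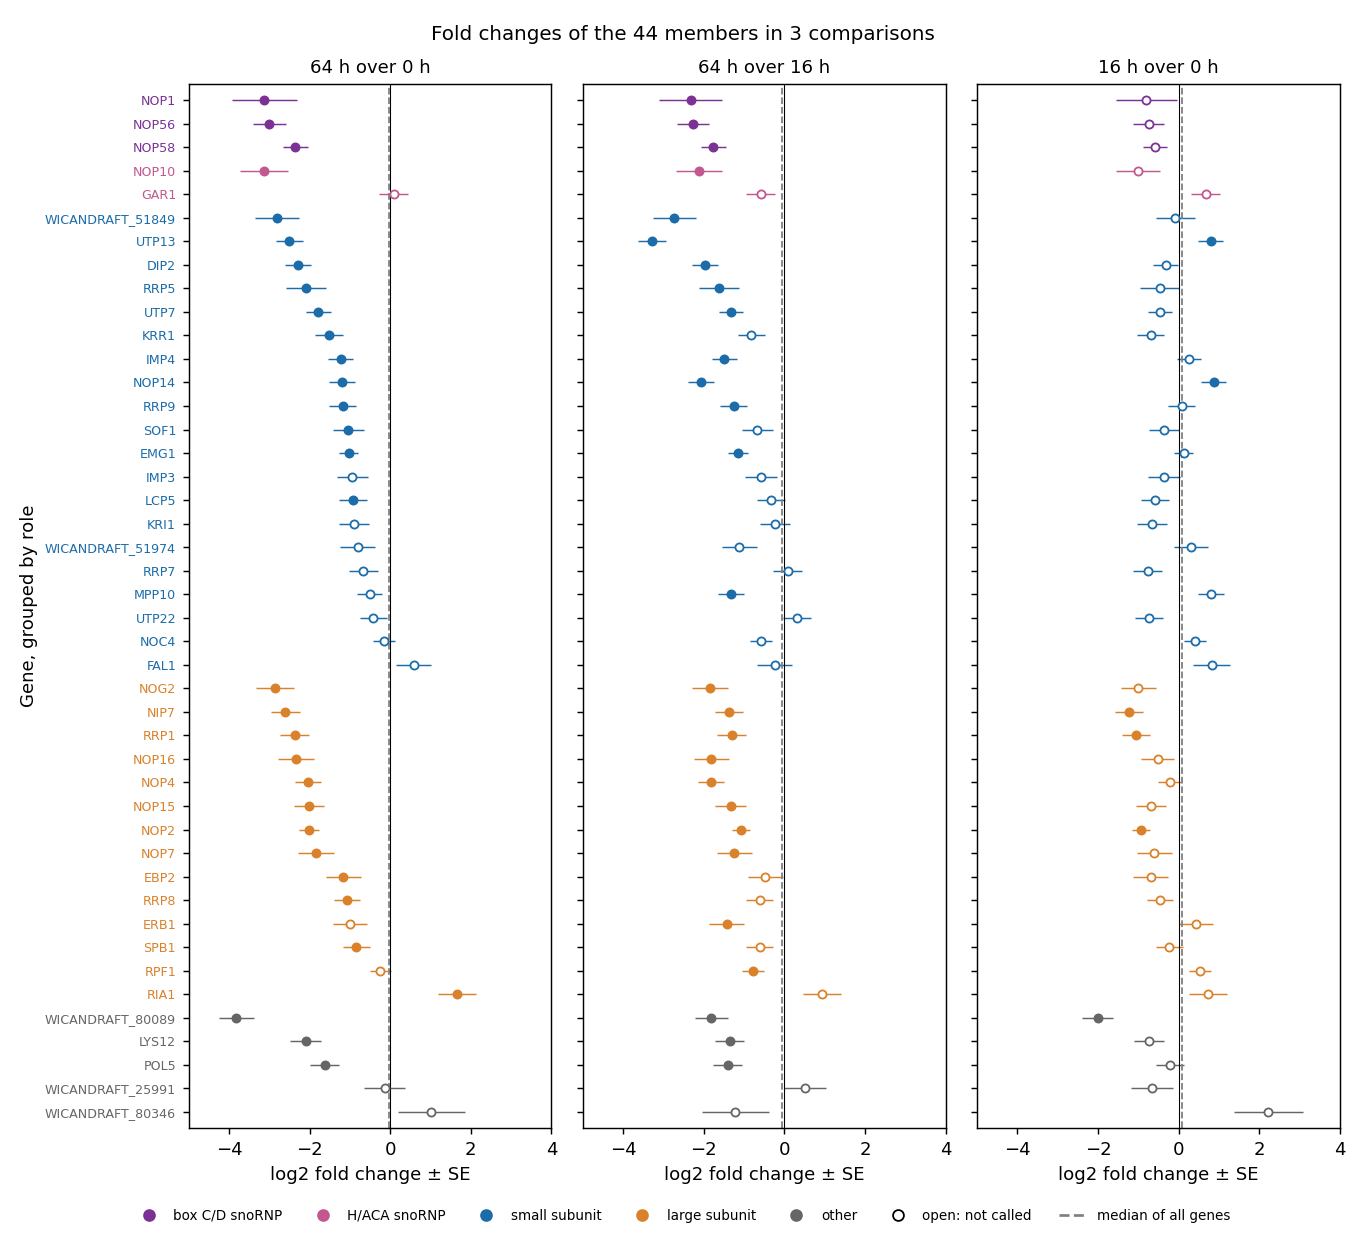
Log2 fold changes with SE of the 44 members (down, grouped and coloured by role) for 64 h over 0 h, 64 h over 16 h and 16 h over 0 h; filled points passed an adjusted p of 0.05 and the dashed line is the median of all genes. With TMM scaling 30 members fell and RIA1 rose in the left panel, 27 fell in the middle one, and 4 fell and 2 rose in the right one; with library size scaling the falls numbered 20, 2 and 18.

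Taken by comparison and with TMM scaling, few members were called at 16 h against 0 h, more at 32 h against 16 h and 0 at 48 h against 32 h. For 16 h over 0 h, 2 of 44 members rose (UTP13 and NOP14) and 4 fell (NOP2, RRP1, NIP7 and WICANDRAFT_80089), against 22.6% and 17.8% of all genes. Their median log2 fold change was -0.46, against 0.09 for all genes, and 31 members lay below the median of all genes. Library size scaling gave 0 risen and 18 fallen members (40.9% fallen, against 27.7% of all genes, with 9.8% risen). The fit without both divergent libraries gave 1 risen and 6 fallen (13.6% fallen, against 20.4% of all genes, with 22.5% risen). Of the 6 calls, those of NOP2 and WICANDRAFT_80089 held in all 15 fits that left out 1 library.

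For 32 h over 16 h, 14 members fell (31.8%, against 17.7% of all genes) and 1 rose (2.27%, against 14.1%). The median was -0.79, against -0.06 for all genes, with 37 members below the median of all genes. Under library size scaling the median of the members turned to 0.42, with 6 risen (13.6%, against 44.4% of all genes) and 1 fallen (UTP13; 2.27%, against 4.5%), while that of all genes was 1.10, so that 37 members again lay below it. Relative to the median of all genes, the members stood at -0.73 with TMM and -0.68 with library size scaling. Leaving out both divergent libraries gave 3 risen and 17 fallen members (38.6% fallen, against 24.1% of all genes), and 11 of the 15 calls held in all 15 fits that left out 1 library.

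For 48 h over 32 h, 0 members were called, as for all genes (0.0% rose and 0.0% fell), with 2 members at an unadjusted p under 0.05 (4.55%, against 5.48% of all genes) and 0 called by DESeq2. For 64 h over 48 h, edgeR called 0 members, against 0.0% risen and 0.0158% fallen among all genes, with 9 members at an unadjusted p under 0.05, all lower at 64 h (20.5%, against 24.6% of all genes in either direction). DESeq2 called 6 members, all lower (13.6%, against 4.54% fallen and 9.31% risen among all genes). Without both divergent libraries 12 of 44 members fell (27.3%, against 15.7% of all genes in that fit), led by WICANDRAFT_51849 at -2.08, SOF1 at -1.78 and UTP13 at -1.63 on the log2 scale.

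For 64 h over 16 h, 27 members fell (61.4%, against 20.8% of all genes) and 0 rose (against 18.0%), with 30 members at an unadjusted p under 0.05, all lower (68.2%, against 48.1% of all genes in either direction), and 0 risen by DESeq2. The median was -1.28, against -0.07 for all genes, and 40 members lay below the median of all genes. With library size scaling only NOP56 and UTP13 fell (4.55%, against 6.1% of all genes) and RIA1 rose (2.27%, against 36.4%), with a median of -0.34, against 0.86 for all genes. Relative to all genes that is -1.22 with TMM and -1.20 with library size scaling. Of the 27 calls 20 held in all 15 fits that left out 1 library.

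For 64 h over 0 h, 30 members fell (68.2%, against 25.8% of all genes) and 1 rose (2.27%, against 26.6%). The median was -1.21, against -0.02 for all genes, with 40 members below it. With library size scaling 20 fell (45.5%, against 17.2% of all genes) and RIA1 rose, and the median was -0.97, against 0.24. Of the 31 calls, 25 held in all 15 fits that left out 1 library, 21 with library size scaling and 30 without both divergent libraries, where 34 members fell (77.3%, against 29.6% of all genes). The comparisons with 0 h share the 0 h libraries and those with 64 h the 64 h libraries, so they are not independent of each other. Among all called genes the risen made up 56.0% with TMM and 26.1% with library size scaling for 16 h over 0 h, 44.3% and 90.8% for 32 h over 16 h, 46.4% and 85.6% for 64 h over 16 h, and 50.7% and 61.2% for 64 h over 0 h.

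**Figure D4:**
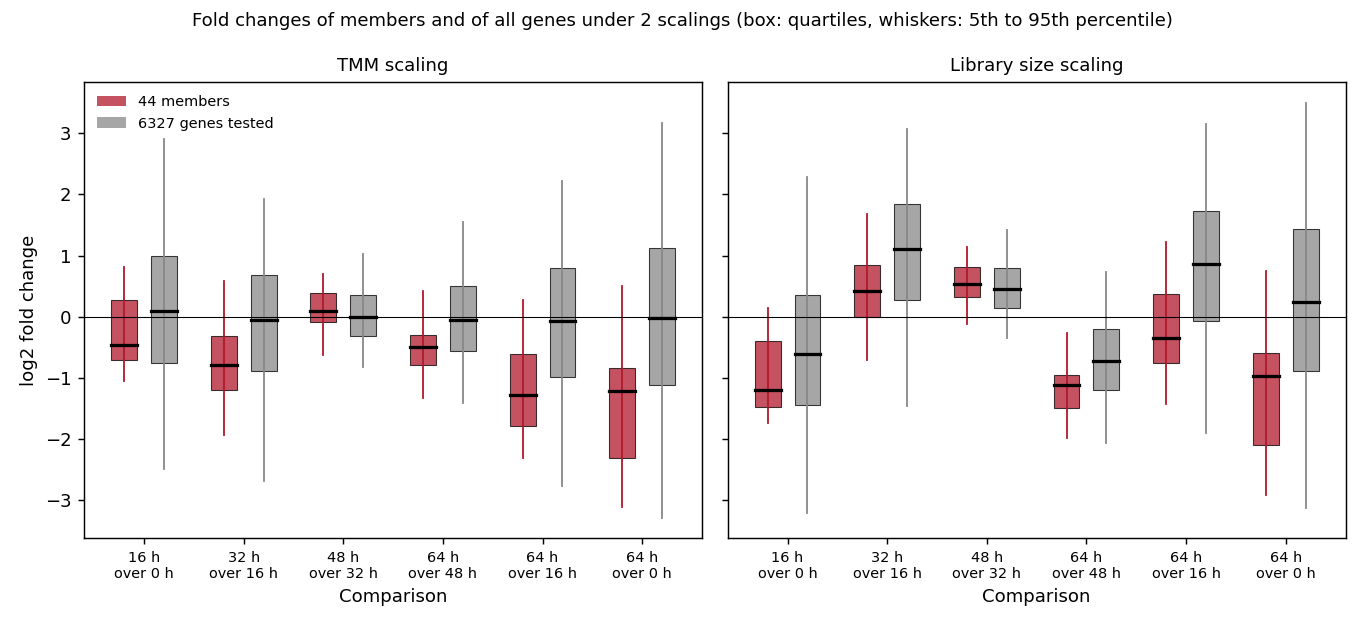
Log2 fold changes of the 44 members (red, left of each pair) and of the 6327 genes tested (grey) in the 6 comparisons with TMM scaling (left panel) and library size scaling (right panel); boxes are quartiles, thick lines medians and whiskers the 5th to 95th percentile. The members' median is below that of all genes in every comparison but 48 h over 32 h under both scalings, while its sign for 32 h over 16 h is -0.79 with TMM and 0.42 with library size.

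As a share of all counts, which is a level scaled by library size, the 44 genes were a small part of each library. The share was 0.155%, 0.192% and 0.122% at 0 h, 0.0643%, 0.105% and 0.0942% at 16 h, 0.156%, 0.161% and 0.12% at 32 h, 0.207%, 0.143% and 0.162% at 48 h and 0.0739%, 0.0591% and 0.136% at 64 h. The 16 h libraries were lower than those of 0 h, 32 h and 48 h, and 64 h replicate 3 stood above its mates. The summed TMM-scaled level had another course, with 1780 ± 137, 1590 ± 98.1, 1210 ± 344, 1010 ± 223 and 827 ± 150 CPM from 0 h to 64 h (SD, n = 3 each). RIA1 and WICANDRAFT_80346 made up much of the late share. Without this pair, chosen after their values were seen, the share averaged 0.149%, 0.0747%, 0.0923%, 0.116% and 0.0627% from 0 h to 64 h. Box C/D members alone took 0.00505% to 0.00746% of the counts at 64 h, against 0.0316% to 0.049% at 0 h.

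Single libraries moved single members. In 16 h replicate 2, 5 members (NOP1, NOP56, NOP10, NOG2 and WICANDRAFT_51849) were at least 2-fold below both of its mates and 4 (FAL1, ERB1, WICANDRAFT_25991 and WICANDRAFT_80346) at least 2-fold above. In 64 h replicate 3, NOP1 was at least 2-fold below its mates and SOF1, WICANDRAFT_51974, WICANDRAFT_25991 and WICANDRAFT_80346 at least 2-fold above. In 0 h replicate 3, IMP3, GAR1, NOP10 and NIP7 were at least 2-fold above their mates and NOP7 below. These 4 are short genes, and over the 44 members the log2 ratio of 0 h replicate 3 to its mates had a Spearman's rho of -0.50 with gene length (-0.49 over all genes tested). Of 14 members under 1000 bp 9 were higher in that library, and of 15 members of 2000 bp or more 14 were lower. The members' log2 fold changes had a Spearman's rho with gene length of 0.30 for 16 h over 0 h and 0.02 for 64 h over 0 h. The part of RNA quality was not tested. Without 0 h replicate 3, 1 member rose and 6 fell at 16 h against 0 h (13.6% fallen, against 16.8% of all genes), and 32 fell at 64 h against 0 h (72.7%, against 24.7%).

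Genes of the pathway outside the rule were counted from lists of symbols and, for the polymerases, the exosome and the RNases, also of words in the KOG descriptions. Such lists can be wider than the complexes named. The exosome list holds SSD1 and DSS1, which share the KOG description of DIS3, and the cytoplasmic helicase SKI2. Of 105 further assembly factors, 58 fell and 1 rose at 64 h against 16 h (median log2 fold change -1.01), and 60 fell and 2 rose at 64 h against 0 h (median -1.01). Under library size scaling these counts were 5 fallen and 5 risen at 64 h against 16 h (median -0.03) and 30 fallen and 3 risen at 64 h against 0 h (median -0.79). The fallen shares of all genes were 20.8% and 25.8% with TMM, and 6.1% and 17.2% with library size scaling. At 32 h against 16 h 31 of the 105 fell and 0 rose (median -0.75, and 0.40 with library size scaling), against 17.7% and 14.1% of all genes. At 16 h against 0 h 5 rose and 5 fell, against 22.6% and 17.8% of all genes. Among the 105 factors NSR1, a nucleolin-like protein, had 15 ± 4.96 CPM at 64 h and 136 ± 4.29 CPM at 0 h (log2 fold change -3.18, edgeR adjusted p = 8.75e-06). DBP2, an RNA helicase, had 318 ± 34.0 CPM at 32 h and 2840 ± 957 CPM at 16 h (log2 fold change -3.16, edgeR adjusted p = 0.000251). Of 17 genes of RNA polymerase I and its factors, 9 fell and 2 rose at 64 h against 0 h. NSI1, a termination factor of that polymerase, had 3.85 ± 2.74 CPM at 64 h and 32.3 ± 8.75 CPM at 0 h. Of 20 genes of RNA polymerase III, which makes 5S rRNA, 6 fell and 3 rose at 64 h against 0 h, near the 25.8% of all genes that fell. TFC4, a subunit of its factor TFIIIC, had 8.16 ± 1.77 CPM at 16 h and 36.7 ± 9.06 CPM at 0 h (log2 fold change -2.17, edgeR adjusted p = 4.05e-05). It then rose to 51.7 ± 3.37 CPM at 32 h and was 62.1 ± 2.33 CPM at 64 h (log2 fold changes against 16 h of 2.66 and 2.93, edgeR adjusted p = 2.53e-05 and 1.03e-05). MAF1, the repressor of that polymerase, had 21.0 ± 0.965 CPM at 32 h and 81.4 ± 13.1 CPM at 16 h (log2 fold change -1.96, edgeR adjusted p = 0.00215). Of 17 genes of the exosome and its cofactors 6 fell and 1 rose at 64 h against 0 h, and of 10 genes of RNase MRP and RNase P 5 fell and 0 rose. Of 10 genes of growth signalling 5 fell and 2 rose in that comparison. With library size scaling 7 polymerase I, 3 polymerase III, 3 exosome, 3 RNase and 5 signalling genes fell, against 17.2% of all genes. These lists are small, and whether their shares differ from that of all genes was not tested. SCH9, a kinase that signals growth, had 4.71 ± 1.28 CPM at 64 h and 61.0 ± 24.7 CPM at 0 h, and LST8, a subunit of the TOR complexes, 1220 ± 642 CPM at 64 h and 99.1 ± 43.5 CPM at 0 h.

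The cytosolic ribosomal protein genes, whose products these factors assemble, were counted in the same libraries, with other signs in part. At 16 h against 0 h, 71 of 83 fell and 0 rose (median log2 fold change -2.60), where 4 of 44 assembly factors fell and 2 rose. Both shares of the assembly factors (9.09% fallen and 4.55% risen) lay below those of all genes (17.8% and 22.6%). In 0 h replicate 3 shorter genes tended to be higher, and the ribosomal protein counts were not repeated without that library. At 64 h against 16 h, 40 of the 83 rose and 0 fell (median 1.25), where 0 assembly factors rose and 27 fell. Of all genes 18.0% rose and 20.8% fell there. With library size scaling 83 ribosomal protein genes fell at 16 h and 73 rose at 64 h against 16 h, beside 18 falls of the assembly factors at 16 h and 2 at 64 h. Under that scaling 27.7% of all genes fell at 16 h, and 36.4% rose and 6.1% fell at 64 h against 16 h. At 64 h against 0 h both lists were lower, with 42 of 83 fallen and 2 risen (median -1.23), and 30 of 44 fallen and 1 risen. The shares of all genes were 25.8% fallen and 26.6% risen. RPL39 had 6.62 ± 3.50 CPM at 16 h and 213 ± 116 CPM at 0 h, and RPL21A 278 ± 117 CPM at 64 h and 21.9 ± 5.59 CPM at 16 h. Where a ribosomal protein has more than 1 gene copy, shared reads make single values uncertain. The difference between the lists was not tested.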

How the data were processed

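The deposited table held raw counts per gene, whole numbers that the authors had not normalised. Per the submitters' processing notes, fastp, HISAT2 and HTSeq were used, without versions. The genome build, the strand setting and the handling of reads shared between genes are not given in the sources used here, so no coordinates are printed, and antisense or paralogous reads could not be separated. Symbols and lengths came from RefSeq (assembly Wican1), matched by locus tag for all 6571 genes.

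The tests ran in edgeR 4.0.16 under R 4.3.3: filterByExpr (6327 genes), TMM scaling and a quasi-likelihood fit with a mean per time point over all 15 libraries (10 residual degrees of freedom; biological coefficient of variation 0.418). It gave 6 contrasts (later over earlier time) and an F test across the 5 times, each with Benjamini-Hochberg adjustment over all genes and a threshold of 0.05. The words rose and fell mean past this threshold. SE is approximate, computed as the absolute log2 fold change over the root of the F statistic. The fit was tested on simulated counts with a smaller spread than these data and without the shift between scalings seen here. That test cannot decide between the scalings.

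Alternatives were library size scaling, median-of-ratios size factors, DESeq2 1.42.0, a replicate block, testing without the low-count filter, a fit without 16 h replicate 2 and 64 h replicate 3 (the divergent libraries), and leaving out each library. Where 2 libraries of a group remain, the spread is pooled over all groups. Roles were assigned from annotation alone. Named members are the 5 with the highest level per kb, the 4 largest called rises and falls per contrast among members of at least 10 CPM, a panel of textbook members (20 of 37 found), members called against the majority, and the 4 least like the median pattern. Others are named only as parts of a role, by library counts or by settings, after their values were seen. Pathway examples are the largest called changes of a list, up to 2 per contrast, of which a part is printed. The members and lists were chosen with earlier results of these data known.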

Additional observations from a re-analysis of the deposited data

How the results depend on the processing

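The count of members changed over the 5 time points and the falls at 64 h against 0 h stayed within 1.5 times under every alternative run. Library size scaling changed many counts, and the shares of all genes not printed here are given above. With it 0 members rose and 18 fell at 16 h, and 6 rose and 1 fell at 32 h against 16 h. It gave 4 fallen at 64 h against 48 h (9.09%, against 2.86% of all genes). At 64 h against 16 h it gave 1 risen and 2 fallen. It turned falls at 32 h against 16 h to values above 0 for EMG1 (0.19), NOP2 (0.23), POL5 (0.08) and IMP4 (0.02), left that of NOP58 at 0.00, and turned that of RPF1 (0.17) at 64 h against 16 h. By construction this scaling keeps the shift of all genes that TMM removes. The risen members at 16 h numbered 4 with DESeq2 and 1 without the low-count filter, against 24.7% and 21.8% of all genes. They numbered 0 with the replicate block and 1 without both divergent libraries, against 19.5% and 22.5% of all genes. At 32 h against 16 h 3 rose without both, against 22.8% of all genes. At 64 h against 48 h 6 fell with DESeq2, 1 with median-of-ratios size factors and 12 without both. The shares of all genes that fell there were 4.54%, 0.616% and 15.7%. At 64 h against 16 h 1 (FAL1) rose without both, against 22.8% of all genes. For these the cause was not tested. Leaving out 1 library gave 0 to 4 risen members at 16 h, 0 to 3 at 32 h against 16 h and 0 to 1 at 64 h against 16 h. It gave 0 to 2 risen at 64 h against 0 h, and 0 to 8 fallen at 64 h against 48 h. The calls of all genes moved between these fits too. At 64 h against 48 h 5.96% of all genes fell without 16 h replicate 2, and 0.0158% with all libraries. Whether shared replicate numbers pair the samples is not given in the labels. Over 30 pairs of same-numbered libraries the median correlation of deviations from the group means was -0.124 (from -0.612 to 0.529), and 6 exceeded 0.1. Such correlations cannot decide whether equal numbers were the same culture. With the replicate block 24 members fell at 64 h against 16 h and 28 at 64 h against 0 h, against 17.4% and 23.9% of all genes. Depth did not limit detection, since the lowest member count was 8, but 3 libraries a group and a coefficient of variation of 0.418 limit what single genes can show.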
